A study of Mus musculus with 8 samples.

Results

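The genes described here encode the glutathione transferases and aldehyde dehydrogenases of the mouse, with a small set of genes that make, use or protect glutathione. Members were taken by gene symbol from the deposited value table: every Gsta, Gstm, Gstp, Gstt, Gsto, Gstk, Gstz, Mgst or Aldh gene with a probe set annotated to it alone, and Nqo1, Hmox1, Gclc, Gclm, Gsr, Gpx1, Gpx2, Gpx3 and Nfe2l2. This gave 52 of the 19938 genes measured, namely 22 glutathione transferases, 21 aldehyde dehydrogenases and the 9 other genes. No member was removed for a low value, and where a gene had several probe sets the one with the highest mean over the 8 arrays was used. Gsta1, Gsta2 and Gstp2 share all their probe sets with other genes, so they are not members.

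Glutathione is the main small thiol of the cell. Glutathione transferases attach it to reactive compounds, glutathione peroxidases spend it to remove peroxides, and aldehyde dehydrogenases oxidise aldehydes that arise from lipids, amino acids, folate and retinoids. The transcription factor Nrf2 (gene Nfe2l2) drives many of these genes through a short promoter element, the antioxidant response element, and in the lung such enzymes are abundant in the club cells of the airways.

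RNA was hybridised to single-colour microarrays from 4 control and 4 knockout samples of lung epithelium of mouse embryos at E18.5, shortly before birth. The knockout embryos lack the Hippo kinases Mst1 and Mst2 in the epithelial progenitors of the lung, where ShhCre had removed both genes (Mst1/2 CKO in the labels). The labels call the other group only Control, with no genotype or allele given, and no drug or other treatment is named for either group. All samples are cells pulled down on magnetic beads through the surface protein Epcam, so the arrays average over every epithelial cell type that carries it and over any other cell that came along. The labels call the arrays biological replicates but do not say how many embryos each one holds. The p-values set group differences against the spread between these arrays, not between single embryos.

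The values are log2 expression, and every difference below is knockout minus control on that scale with the standard error from limma (SE), over 4 arrays in each group. A gene is said to have risen or fallen only where its limma p-value was under 0.05 after Benjamini-Hochberg adjustment across the 19938 genes. A probe set's brightness depends on its own probes, so levels are compared between arrays and never between genes.

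The epithelial genes Epcam (10.06 ± 0.15 in control and 10.07 ± 0.17 in knockout, SD, n = 4) and Cdh1 (12.10 ± 0.04 in both groups) did not pass the test. Stk4, which encodes Mst1, fell by 0.30 (SE 0.076, adjusted p = 0.0188). Whether its probes fall in the part that ShhCre removes is not known here, so this value does not test the loss of the gene, and Mst2 (Stk3) was not analysed here. Cell type markers moved with the groups: the mean level of 19 alveolar type 2 markers was 12.27 to 12.47 in control and 11.03 to 11.61 in knockout arrays, with 17 of the 19 lower, and the mean of 15 type 1 markers was 11.37 to 11.54 and 11.91 to 12.08, with 12 of the 15 higher. Of 12 club and secretory markers that are no members, 5 fell and 3 rose (mean 9.96 ± 0.03 against 9.64 ± 0.12, SD, n = 4). Ciliated markers were lower (9 of 18 fell; 8.18 to 8.43 in control against 7.78 to 8.16) and basal markers higher (6 of 13 rose; 6.95 to 7.14 against 7.43 to 7.65). Mesenchymal markers (5 of 20 rose; 8.27 to 8.67 against 8.49 to 8.97), endothelial markers (4 of 12 rose; 8.92 to 9.23 against 9.27 to 9.36) and 7 mesothelial markers (2 rose; 7.57 to 8.04 against 7.97 to 8.40) were also higher on average. Of 12 leukocyte markers 1 rose and 1 fell (8.74 to 9.57 against 9.05 to 9.34), none of 3 erythroid markers passed, and of 20 general epithelial genes 2 rose and 4 fell. Of these shifts only the mesenchymal one was put into a fit, as a covariate; the part of the others in the members' changes was not tested. In such bulk samples fewer cells of a type and less RNA per cell cannot be told apart.

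Of the 52 members 20 fell, 5 rose and 27 did not pass the test. Called members therefore made up 48.1% of the set, against 18.8% of all genes. The falls were 38.5% of the members and 10.2% of all genes, while the rises were 9.62% of the members and 8.60% of all genes. The shares of all genes given here and below were not matched for expression level. Of the 52 members 35 lay above the median level, where calls were more common. A test of the genes above that level alone called 3076 genes and 21 of these 35 members. The test over all 19938 genes called 3746. The genes at or below the median were not in the first test, so its 3076 calls are the larger share of the genes tested. The share called among the 35 members was larger still. How much of the members' excess goes with their level was not tested. The median difference of the members was −0.17, and that of all genes −0.02. In 24 members (6 higher, 18 lower) the control and knockout values were apart with no overlap, where 22.1% of all genes had none. Differences ran from −1.25 for Gclc, the rate-limiting enzyme of glutathione synthesis, to 1.09 for the glutathione transferase Gsto1. With the mean of the mesenchymal markers added to the fit as a covariate, 9 members fell and 3 rose. In that fit the calls over all 19938 genes also dropped, from 3746 to 1951. Only 3 rather than 5 members rose without control replicate 1 or without knockout replicates 1 and 4 together.

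**Figure D1:**
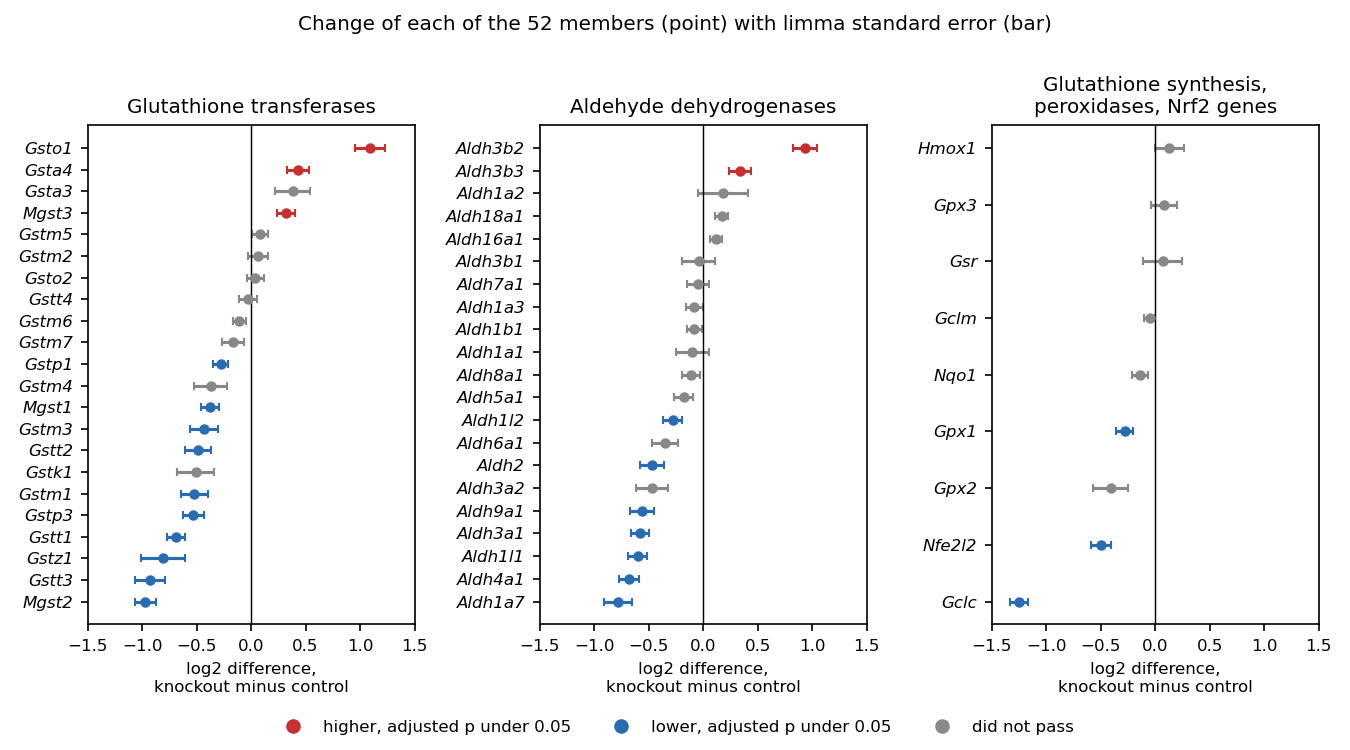
Difference between knockout and control for each of the 52 members on the log2 scale (horizontal axis), in 3 panels by role; points are limma estimates, bars are standard errors and colours mark the result of the test. Most coloured points lie left of 0, from −1.25 for Gclc, and Gsto1 (1.09) and Aldh3b2 (0.93) lie farthest to the right.

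Glutathione is assembled from its amino acids in 2 steps, of which the first, by glutamate-cysteine ligase, sets the pace. Gclc encodes the catalytic subunit of that ligase. It read 11.27, 11.36, 11.30 and 11.44 in the control arrays and 10.25, 10.21, 9.98 and 9.94 in the knockout arrays, each in the order of replicates 1 to 4, as in all such lists that follow. All knockout arrays were more than 1 unit below the control mean, and the groups were far apart. The fall was 2.38-fold (−1.25, SE 0.083, adjusted p = 9.71e-06). Gclm, the modifier subunit that lowers the ligase's need for substrate, read 9.78, 9.79, 9.76 and 9.79 in control and 9.72, 9.79, 9.67 and 9.75 in knockout arrays. These values overlapped and the difference did not pass (−0.05, SE 0.052, adjusted p = 0.607). Within each array the gap between Gclc and Gclm was 1.49 to 1.65 in control and 0.19 to 0.54 in knockout samples, which did not overlap. Gsr, the reductase that returns oxidised glutathione to its active form, was scattered in control (10.07, 10.84, 9.77 and 10.48) and tight in knockout arrays (10.32 to 10.40), and did not pass (0.07, SE 0.18).

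Nfe2l2 read 12.10, 12.07, 12.24 and 12.18 in control and 11.75, 11.78, 11.69 and 11.36 in knockout arrays. Every knockout value was below every control value, and the lowest was that of replicate 4. The fall was 1.41-fold (−0.50, SE 0.092, adjusted p = 0.00304); with the mesenchymal covariate the difference was −0.40 and the call ended. Nqo1 and Hmox1, enzymes of quinone reduction and heme breakdown that are widely used as readouts of Nrf2, did not pass: Nqo1 differed by −0.14 (SE 0.073, adjusted p = 0.239) and Hmox1 by 0.13 (SE 0.13, adjusted p = 0.582). Nqo1 read 5.75 to 5.95 in control and 5.60 to 5.87 in knockout arrays, and whether it lay above background is not known from these values. Of the glutathione peroxidases, Gpx1, the cytosolic enzyme, fell slightly, from 11.79 ± 0.11 to 11.51 ± 0.11 (SD, n = 4; −0.28, SE 0.076, adjusted p = 0.0249). That call was lost when control replicate 1, 2 or 3 (−0.29, −0.24 and −0.28), knockout replicate 3 (−0.29) or knockout replicates 1 and 4 together (−0.24) were left out, and with the mesenchymal covariate (−0.16). Gpx2, an epithelial peroxidase, stood at 7.05 to 7.43 in control and 6.48 to 7.23 in knockout arrays and did not pass (−0.41, SE 0.16, adjusted p = 0.108), but passed without knockout replicate 2 (−0.55). Gpx3, the secreted form, did not pass either (0.08, SE 0.12).

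Nrf2 acts through the antioxidant response element, whose core can be looked for in promoters. The core searched for was TGACNNNGC on both strands, in windows from 250 bases before to 50 bases after each RefSeq start site (GRCm38.p6). Windows were at hand for 41 of the 52 members. Gclc, Gsr, Hmox1, Aldh2 and Gstt2 were among those without a window, so their promoters were not searched. The core was held by 8 members: Nfe2l2, Aldh9a1, Mgst1, Gclm, Gsta3, Gstm5, Gstm7 and Aldh1a2. Of these 8, 3 fell and 5 did not pass the test, where 38.5% of all 52 members fell. Whether the core goes with the falls was not tested. By window the share was 15.4% (8 of 52 windows), against 12.4% of all 32851 windows of the same length, and none of the 8 matches held the related motif TGACTCA. The motif GGAATG of the Tead factors, through which Yap and Taz act, was in 5 of the 52 windows (9.6%), those of Aldh1a1, Aldh6a1, Gstm2, Gstm6 and Gstm7, against 14.7% of all windows. Gstm7 alone held both motifs, which begin 162 (Tead) and 129 bases (core) before its start and so do not overlap. A match of letters is not a measured binding site. The 250 bases before the start are shown for the 3 members with a core that fell and for Gclm, which did not pass, with the core in capitals (in Mgst1 and Gclm it lies on the opposite strand, so its complement is shown).
Nfe2l2, chr2:75704664-75704913, minus strand: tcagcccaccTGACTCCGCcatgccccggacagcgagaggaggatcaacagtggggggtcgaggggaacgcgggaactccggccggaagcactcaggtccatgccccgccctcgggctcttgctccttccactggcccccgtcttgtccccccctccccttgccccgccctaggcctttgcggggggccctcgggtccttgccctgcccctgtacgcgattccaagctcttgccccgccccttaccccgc
Aldh9a1, chr1:167349741-167349990, plus strand: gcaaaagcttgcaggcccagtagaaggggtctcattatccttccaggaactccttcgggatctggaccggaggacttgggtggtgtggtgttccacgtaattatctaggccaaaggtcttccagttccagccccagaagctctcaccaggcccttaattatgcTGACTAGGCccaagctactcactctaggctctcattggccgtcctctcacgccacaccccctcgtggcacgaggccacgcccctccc
Mgst1, chr6:138140277-138140526, plus strand: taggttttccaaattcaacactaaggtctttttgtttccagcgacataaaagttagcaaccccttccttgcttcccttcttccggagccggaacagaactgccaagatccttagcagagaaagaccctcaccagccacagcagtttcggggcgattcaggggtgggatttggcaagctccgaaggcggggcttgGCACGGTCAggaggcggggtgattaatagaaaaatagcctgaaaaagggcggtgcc
Gclm, chr3:122245307-122245556, plus strand: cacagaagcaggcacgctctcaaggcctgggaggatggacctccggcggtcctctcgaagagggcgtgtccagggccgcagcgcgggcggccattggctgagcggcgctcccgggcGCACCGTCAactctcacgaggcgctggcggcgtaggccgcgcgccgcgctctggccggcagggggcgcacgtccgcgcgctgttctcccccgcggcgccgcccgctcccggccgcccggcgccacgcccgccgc
The core begins 240 bases before the start in Nfe2l2, 87 in Aldh9a1, 56 in Mgst1 and 134 in Gclm. Nfe2l2, Aldh9a1 and Mgst1 changed by −0.50, −0.56 and −0.38, and Gclm by −0.05.

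Among the 22 glutathione transferases 10 fell, 3 rose and 9 did not pass. Called genes made up 59.1% of them and falls 45.5%, against 18.8% and 10.2% of all genes. The theta class, small soluble transferases that act on halogenated and other small compounds, fell in 3 of 4 genes. Gstt3 read 9.91, 10.20, 9.89 and 9.83 in control and 9.30, 9.28, 8.79 and 8.74 in knockout arrays. Its groups did not overlap, and knockout replicates 3 and 4 were lowest (−0.93, SE 0.14, 1.90-fold, adjusted p = 8.39e-04). Gstt1 read 7.76, 7.78, 7.65 and 7.42 in control and 7.08, 6.93, 6.92 and 6.94 in knockout arrays, again without overlap (−0.69, SE 0.084, adjusted p = 2.25e-04). Gstt2 fell from 8.57 ± 0.14 to 8.08 ± 0.26 (SD, n = 4; −0.49, SE 0.12, adjusted p = 0.0169), but this call was lost without control replicate 1 (−0.45) or knockout replicate 3 (−0.47) and with the mesenchymal covariate (−0.20). The remaining gene, Gstt4, read 5.59 to 5.91 over all arrays and did not pass (−0.03, SE 0.085). Whether Gstt4 lay above background, and so could show a fall, is not known from these values. In the RefSeq gene order these genes follow each other on chromosome 10 as Gstt3, Gstt1, Gstt4 and Gstt2, with no other protein-coding gene between them.

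Gstz1, of the zeta class, is the isomerase of tyrosine breakdown. It read 9.72, 9.97, 9.81 and 9.79 in control and 9.32, 9.32, 9.13 and 8.27 in knockout arrays. All knockout values were lower, with replicate 4 well below the other knockout arrays (−0.81, SE 0.20, adjusted p = 0.0161), and without replicate 4 the difference was −0.56; it was −0.48 and no longer passed with the mesenchymal covariate. Gstk1, the transferase of mitochondria and peroxisomes, had its lowest value in the same array (11.55, 11.96, 11.96 and 11.95 in control and 11.61, 11.67, 11.23 and 10.87 in knockout arrays). Its groups overlapped and it did not pass (−0.51, SE 0.17, adjusted p = 0.0568), although it passed without any 1 of control replicate 1 (−0.61) and knockout replicates 1 and 2 (−0.60 and −0.62), after quantile normalization and among genes above the median level (−0.51 in both).

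The mu class genes follow each other on chromosome 3. Of 7 Gstm genes 2 fell, none rose and 5 did not pass. Gstm1, a broad detoxifying transferase, fell from 9.41 ± 0.22 to 8.89 ± 0.21 (SD, n = 4; −0.52, SE 0.12, adjusted p = 0.0135) with overlapping groups, and the call ended with the mesenchymal covariate (−0.46) and without knockout replicates 1 and 4 together (−0.53). Gstm3 fell by 0.43 on the log2 scale (SE 0.13, adjusted p = 0.0403), with overlapping groups. It no longer passed when control replicate 2, 3 or 4 (−0.42, −0.36 and −0.42), knockout replicate 1, 3 or 4 (−0.44, −0.36 and −0.36) or knockout replicates 1 and 4 together (−0.35) were left out, with the mesenchymal covariate (−0.28) or as the mean of its probe sets (−0.26). Its other probe set alone differed by −0.09. Gstm2, beside Gstm1 on chromosome 3, stayed within 9.69 to 9.96 in control and 9.72 to 10.07 in knockout arrays (0.06, SE 0.093). Gstm4 (−0.37, SE 0.15), Gstm5 (0.08, SE 0.074), Gstm6 (−0.11, SE 0.061) and Gstm7 (−0.17, SE 0.10) did not pass. The Gstm genes resemble each other closely, and signal may be shared between their probe sets.

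Pi class transferases fell. Gstp1, the main pi class enzyme, read 10.24, 10.38, 10.53 and 10.34 in control and 10.04, 10.17, 10.13 and 10.04 in knockout arrays (−0.28, SE 0.071, adjusted p = 0.0189). The groups did not overlap, but the call ended without control replicate 3 (−0.23), without knockout replicate 1 (−0.26), with the mesenchymal covariate (−0.28) and without knockout replicates 1 and 4 together (−0.22), and a pair of probe sets that Gstp1 shares with Gstp2 differed by −0.15 each without passing. Gstp3 fell from 6.71 ± 0.14 to 6.18 ± 0.17 (SD, n = 4; −0.53, SE 0.097, adjusted p = 0.00308). In the alpha class 1 of 2 genes rose. Gsta4, which conjugates the lipid aldehyde hydroxynonenal, read 10.15, 10.38, 10.42 and 10.34 in control and 10.71, 11.01, 10.52 and 10.75 in knockout arrays. Every knockout value exceeded every control value (0.43, SE 0.10, 1.35-fold, adjusted p = 0.0129); the call ended without knockout replicates 1 and 4 together (0.44). Gsta3 differed by 0.38 (SE 0.16, adjusted p = 0.144) and did not pass.

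The omega class held the largest rise. Gsto1, a thiol transferase that also reduces dehydroascorbate, read 8.56, 9.09, 9.08 and 9.16 in control and 9.85, 10.38, 10.01 and 9.99 in knockout arrays. The lowest knockout value was well above the highest control value, and control replicate 1 lay below the other control arrays. The rise was 2.13-fold (1.09, SE 0.14, adjusted p = 3.55e-04). Its neighbour on chromosome 19, Gsto2, did not pass (0.04, SE 0.077), at 5.93 to 6.10 in control and 5.95 to 6.24 in knockout arrays. Whether Gsto2 lay above background is not known from these values.

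All 3 microsomal transferases, enzymes of the endoplasmic reticulum membrane, changed, in different directions. Mgst2, which can make leukotriene C from its epoxide precursor, read 7.64, 7.67, 7.81 and 7.35 in control and 6.55, 6.53, 6.75 and 6.78 in knockout arrays. The groups were separated by more than their own ranges, and the fall was 1.95-fold (−0.97, SE 0.10, adjusted p = 8.25e-05). Mgst1, the general microsomal transferase and peroxidase, fell from 11.21 ± 0.09 to 10.83 ± 0.16 (SD, n = 4; −0.38, SE 0.084, adjusted p = 0.00961), a call that ended with the mesenchymal covariate (−0.27) and without knockout replicates 1 and 4 together (−0.35). Mgst3 rose from 7.64 ± 0.08 to 7.96 ± 0.15 (SD, n = 4; 0.32, SE 0.080, adjusted p = 0.0180), and that call ended without control replicate 1 (0.28), without knockout replicate 3 (0.26) and with the mesenchymal covariate (0.26).

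**Figure D2:**
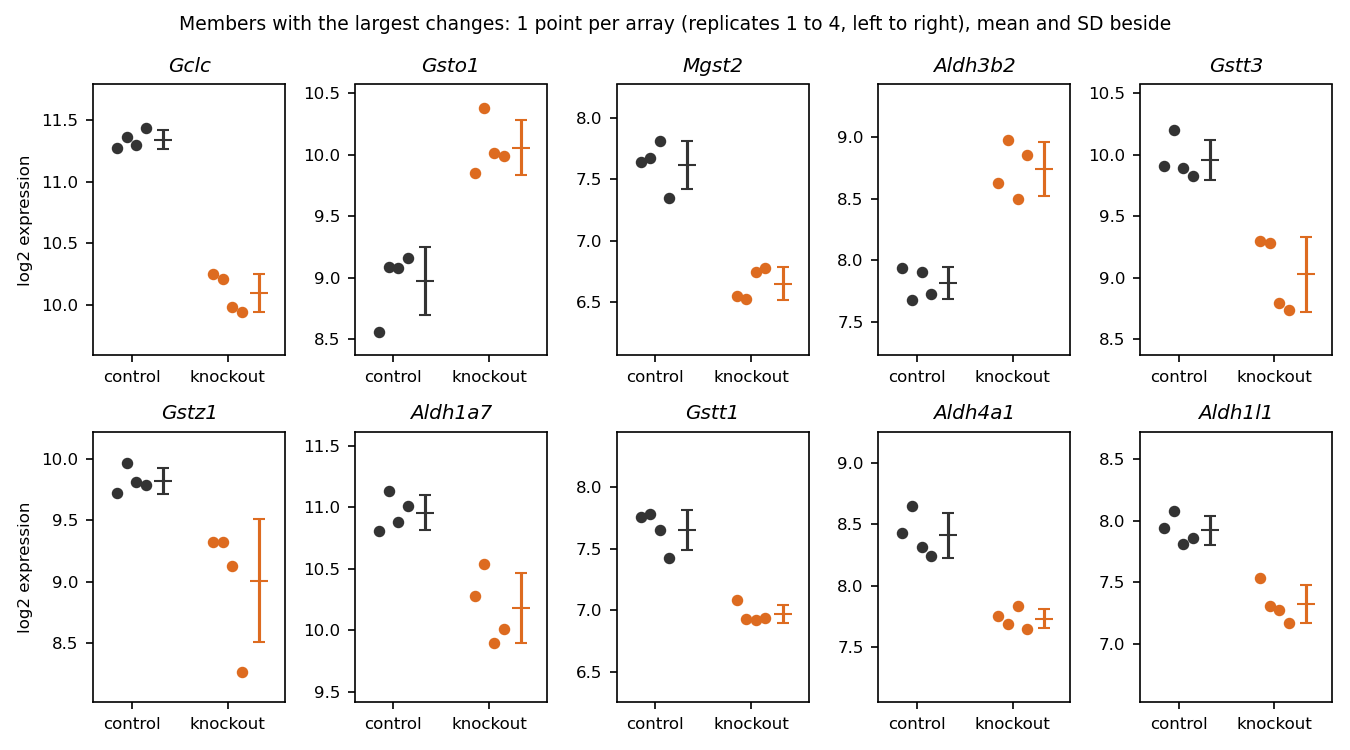
Log2 expression (vertical axis, the same span in each panel) of the 10 members with the largest changes among those that passed, 1 point per array in replicate order, with the mean and SD of each group beside its points. No panel has overlapping groups; Gsto1 and Aldh3b2 are higher in knockout arrays, and in Gstz1 knockout replicate 4 (8.27) lies well below the other 3 knockout arrays.

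Of the 21 aldehyde dehydrogenases 7 fell, 2 rose and 12 did not pass. Called genes made up 42.9% of them and falls 33.3%, against 18.8% and 10.2% of all genes. The rises were those of the neighbouring genes Aldh3b2 and Aldh3b3 on chromosome 19, which encode enzymes for fatty aldehydes. A further probe set is annotated to both genes. Signal may thus be shared between their own probe sets, and the rises may not be separate. Aldh3b2 read 7.94, 7.68, 7.91 and 7.73 in control and 8.63, 8.98, 8.50 and 8.86 in knockout arrays. The groups were clearly apart (0.93, SE 0.11, 1.90-fold, adjusted p = 1.57e-04). Aldh3b3 gave different values by probe set. Its brightest, used here by rule, read 9.77 to 10.03 in control and 10.01 to 10.51 in knockout arrays and overlapped (0.34, SE 0.10, adjusted p = 0.0416), while another probe set read 6.12, 5.92, 6.23 and 5.85 in control and 7.67, 7.71, 7.12 and 7.04 in knockout arrays (1.35, SE 0.17) and the third differed by 0.25 (SE 0.070). The mean of its 3 probe sets rose by 0.65. With the brightest alone the call was lost when control replicate 1, 2 or 4 (0.30, 0.36 and 0.32), knockout replicate 1, 2 or 4 (0.37, 0.25 and 0.32) or knockout replicates 1 and 4 together (0.36) were left out, and with the mesenchymal covariate (0.41). Aldh3b1, of the same subfamily, did not pass (−0.04, SE 0.15).

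Aldh1a1, Aldh1a2 and Aldh1a3 oxidise retinaldehyde to retinoic acid, and none of them passed the test. Aldh1a7, a rodent relative of Aldh1a1, is not known as a retinaldehyde enzyme. Aldh1a1 and Aldh1a7 are close copies that lie side by side on chromosome 19, so their signals may be shared. Aldh1a7 read 10.81, 11.13, 10.88 and 11.01 in control and 10.28, 10.54, 9.90 and 10.01 in knockout arrays, with no overlap, and was called lower (−0.78, SE 0.13, adjusted p = 0.00181). Aldh1a1 read 9.56, 9.90, 9.92 and 10.26 in control and 9.73, 10.09, 9.50 and 9.90 in knockout arrays. Its groups covered the same range (−0.10, SE 0.15, adjusted p = 0.732). Aldh1a2, which is also a marker of mesothelium, read 7.23, 7.94, 7.36 and 8.31 in control and 7.69, 7.60, 7.93 and 8.33 in knockout arrays (0.18, SE 0.23, adjusted p = 0.695). The mean of the 7 other mesothelial markers was 7.57, 7.80, 7.61 and 8.04 in control and 7.97, 8.10, 8.18 and 8.40 in knockout arrays. Its order followed that of Aldh1a2 in the control arrays but not in knockout replicates 1 and 2. The part of mesothelial cells in the Aldh1a2 values was not tested. Aldh1a3 did not pass (−0.08, SE 0.078).

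Other aldehyde dehydrogenases serve amino acid, folate and fatty aldehyde metabolism. Aldh4a1, the mitochondrial enzyme of proline breakdown, read 8.43, 8.65, 8.31 and 8.24 in control and 7.75, 7.69, 7.83 and 7.65 in knockout arrays. No values overlapped (−0.68, SE 0.089, adjusted p = 3.82e-04). Aldh18a1, which works in the opposite direction, in proline synthesis, was higher in every knockout array (8.60 to 8.72) than in any control array (8.37 to 8.56), but did not pass (0.17, SE 0.062, adjusted p = 0.0830). Aldh1l1, the cytosolic formyltetrahydrofolate dehydrogenase, read 7.94, 8.08, 7.81 and 7.86 in control and 7.54, 7.31, 7.28 and 7.17 in knockout arrays, and its groups were apart (−0.60, SE 0.087, adjusted p = 7.06e-04). Its mitochondrial counterpart Aldh1l2 fell by 0.28 on the log2 scale (SE 0.085, adjusted p = 0.0432). The Aldh1l2 call was lost when control replicate 2 or 3 (−0.24 in both), knockout replicate 1, 2 or 3 (−0.23, −0.26 and −0.31) or knockout replicates 1 and 4 together (−0.26) were left out, and with the mesenchymal covariate (−0.37).

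Aldh3a1, an enzyme of the airway and cornea, fell from 6.86 ± 0.15 to 6.28 ± 0.11 (SD, n = 4; −0.58, SE 0.086, adjusted p = 7.84e-04). Aldh9a1, of carnitine synthesis, fell from 9.48 ± 0.11 to 8.92 ± 0.25 (−0.56, SE 0.11, adjusted p = 0.00588), and Aldh2, the mitochondrial enzyme that clears acetaldehyde, from 10.81 to 11.20 in control to 10.22 to 10.69 in knockout arrays (−0.47, SE 0.11, adjusted p = 0.0131). In both the groups did not overlap, and both calls ended with the mesenchymal covariate (−0.38 and −0.34). Aldh3a2, the fatty aldehyde dehydrogenase, differed by as much as Aldh2 but with more scatter, 9.82 to 10.23 in control and 9.82, 9.77, 9.61 and 9.11 in knockout arrays, and just missed the threshold (−0.47, SE 0.15, adjusted p = 0.0508). It passed under 8 of 16 alternatives, among them the loss of knockout replicate 4, where the difference was smaller (−0.31). The rest did not pass: Aldh6a1 of valine breakdown (−0.35, SE 0.12, adjusted p = 0.0735), Aldh5a1 of GABA breakdown (−0.18), Aldh7a1 of lysine breakdown (−0.05), Aldh1b1 (−0.08), Aldh8a1 (−0.11) and Aldh16a1 (0.12).

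Whether close relatives changed unequally was tested for every pair within 12 subfamilies, 48 pairs in all, by an exact two-sided permutation test of the within-array difference between the members. With 8 arrays this test can give no p below 0.0286, which 22 pairs reached. After Benjamini-Hochberg adjustment over the 48 pairs the exact p of these 22 was 0.0623, so no pair passed. The design limits this test. With this floor at least 28 of the 48 pairs had to reach it before any could pass, however large its difference. Some of the 22 pairs at the floor follow, with the change of the first gene minus that of the second. They were Gclc and Gclm (−1.20), Gsto1 and Gsto2 (1.04), Mgst2 and Mgst3 (−1.28), Gstt3 and Gstt4 (−0.90), Aldh3b1 and Aldh3b2 (−0.97), and Aldh1a1 and Aldh1a7 (0.67). In each the within-array differences did not overlap between the groups. Reaching the floor means just that, so it adds nothing to the p-value, and the test decided nothing about any single pair.

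Across the knockout arrays the falls were not equally deep. Of the 20 members that fell, 11 were lowest in knockout replicate 4, 4 in replicate 3, 4 in replicate 1 and 1 in replicate 2. Among all 2031 genes that fell, replicate 4 was lowest in 45.9%, replicate 3 in 30.5%, replicate 2 in 14.9% and replicate 1 in 8.67%. The mean of the type 2 markers was 11.61, 11.37, 11.42 and 11.03 in knockout replicates 1 to 4, so replicate 4 was lowest there as well. Other marker means were extreme in replicate 4 too. Among the knockout arrays it had the highest mesenchymal (8.97), endothelial (9.36) and mesothelial (8.40) means and the lowest general epithelial mean (10.62). The part of any of these in the depth of the falls was not tested. In Mgst2, Aldh3a1, Gstp3 and Aldh1l2 replicate 4 was not the deepest fall: their knockout values were lowest in replicate 1 or 2 and highest in replicate 4. Of the 5 members that rose, 4 were highest in knockout replicate 2 and Mgst3 in replicate 3.

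**Figure D3:**
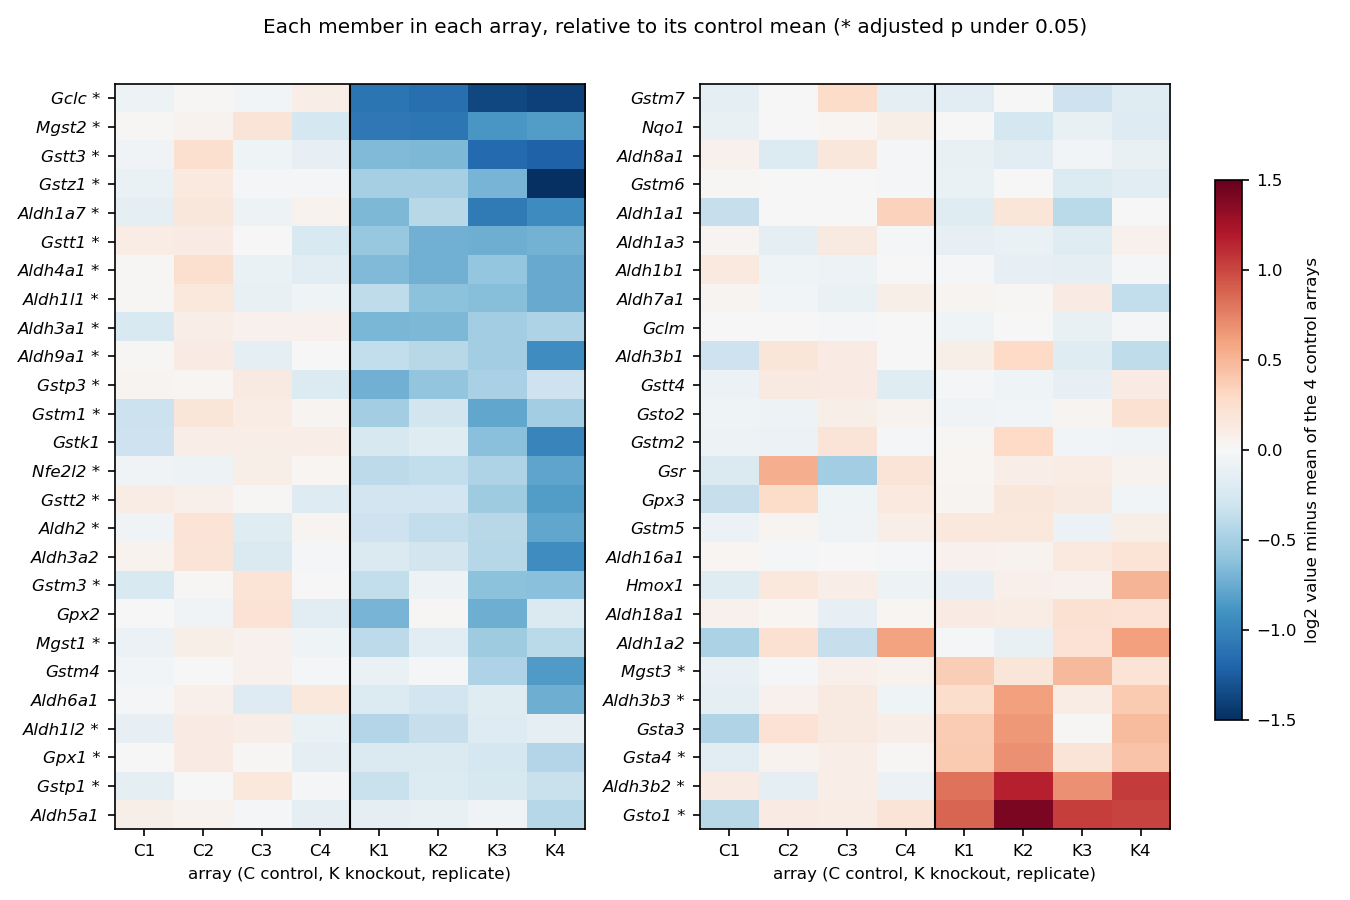
All 52 members (rows, ordered by difference) in all 8 arrays (columns), coloured by the log2 value minus the mean of the 4 control arrays; an asterisk marks members that passed the test. The darkest blue cells, at the top of the left panel, belong to Gclc, Mgst2, Gstt3 and Gstz1; knockout replicate 4 is darkest for Gstz1, and the darkest red, at the foot of the right panel, belongs to Aldh3b2 and Gsto1.

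Further genes of the thiol and Nrf2 network were followed through a list of 50 measured genes that are no members. Of these 50 genes 13 fell, 2 rose and 35 did not pass, and the median difference was −0.07. Among all genes 10.2% fell and 8.60% rose. Falls were thus a larger share of this list than of all genes, and rises a smaller one. Of the list 8 genes fell when knockout replicates 1 and 4 were both left out and 6 with the mesenchymal covariate. Cat, the catalase that removes hydrogen peroxide, fell from 12.31 ± 0.10 to 11.44 ± 0.10 (SD, n = 4; −0.88, SE 0.072, adjusted p = 2.24e-05). Glrx, a glutaredoxin that uses glutathione to reduce protein thiols, fell 2.79-fold (−1.48, SE 0.18) and Ggt5, a gamma-glutamyltransferase of the cell surface, 2.05-fold (−1.04, SE 0.13). The genes that rose were Slc7a11, the cystine importer that feeds glutathione synthesis, from 6.21 ± 0.13 to 7.37 ± 0.22 (1.16, SE 0.11, 2.24-fold, adjusted p = 4.34e-05), and Abcc1, an exporter of glutathione conjugates (0.59, SE 0.086). Thus the importer Slc7a11 was higher and the ligase subunit Gclc lower in the same arrays. The other 10 that fell, named because they passed, were Me1 (−0.60), Abcc3 (−0.57), Sod3 (−0.42), Cbr1 (−0.38), Hagh (−0.36), Sod2 (−0.35), Txnrd2 (−0.35), Blvrb (−0.31), Tkt (−0.25) and Bach1 (−0.23). Some that did not pass, chosen after their values were seen, were Srxn1 (0.14, SE 0.052, adjusted p = 0.0941), Txnrd1 (0.06, SE 0.066) and Gss, the second enzyme of glutathione synthesis (0.00, SE 0.088). Genes often used as Nrf2 readouts were thus found among those that fell (Me1), those that rose (Slc7a11) and those that did not pass (Srxn1, Txnrd1). Keap1, which marks Nrf2 for degradation, did not pass (0.09, SE 0.057).

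Retinoid genes around the Aldh1a enzymes were called near the background share: of 30 measured, 3 rose, 2 fell and 25 did not pass (16.7%, median −0.02). The falls were those of Dhrs3, which turns retinaldehyde back to retinol (10.70 ± 0.15 to 9.78 ± 0.16, SD, n = 4; −0.92, SE 0.096, adjusted p = 8.98e-05), and of Rdh10, which makes retinaldehyde from retinol (−0.39, SE 0.062, adjusted p = 0.00122). The rises were those of Tgm2, a transglutaminase (0.91, SE 0.082), the retinoic acid receptor Rarb (0.59, SE 0.11) and the dehydrogenase Dhrs9 (0.27, SE 0.062).

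**Figure D4:**
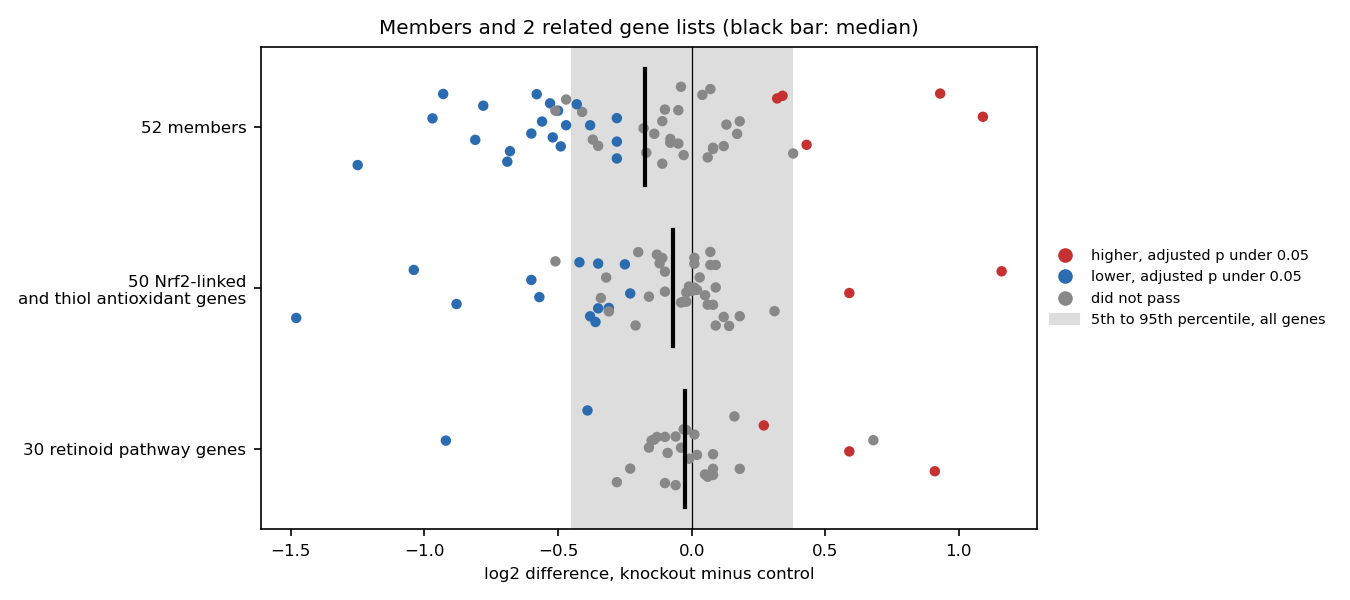
Log2 difference between knockout and control (horizontal axis) of each gene in 3 sets (rows): the 52 members, 50 Nrf2-linked and thiol antioxidant genes and 30 retinoid pathway genes; colours mark the test, black bars the medians (−0.17, −0.07 and −0.02), and vertical scatter within a row has no meaning. The grey band spans the 5th to the 95th percentile of all genes (−0.45 to 0.38), and Gclc among the members, Glrx among the antioxidant genes and Dhrs3 among the retinoid genes lie far to its left.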

How the data were processed

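Epcam-selected lung epithelium of E18.5 mouse embryos was measured on 8 arrays, 4 control and 4 knockout. The values deposited by the authors are log2 expression of 35556 probe sets; the log2 scale was read from their range (2.895 to 13.95). How they were normalized, and with what software, is not given in the sources used here. Array medians were 7.213 to 7.302 and no value differed by more than 0.175 from the mean of its rank, so no scaling was added. Arrays give no counts, and their number limits the precision. Symbols came from GEO's platform annotation: 21789 probe sets have 1 symbol, 1621 several and 12146 none. All 52 members matched RefSeq (GRCm38.p6) by gene number. No probe set coordinates are printed.

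Knockout was compared with control with limma 3.58.1 (lmFit, eBayes; R 4.3.3), two-sided, with Benjamini-Hochberg adjustment, without covariates, over 19938 genes, after a test on simulated data. Permutation tests used SciPy 1.17.1. Every member is named; the 10 largest changes that passed, and isozymes set beside them, have the value of each array, and the 5 genes of smallest p of each related list are named. Members, lists and alternatives were chosen with earlier results of these data known. Alternatives were a replicate block, median centring, quantile normalization, a filter at the median level, the mean of all probe sets, a variance trend, the mean of 20 mesenchymal markers as a covariate and leaving out each array; leaving out knockout replicates 1 and 4 together and a fit over all probe sets were added after the data were seen.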

Additional observations from a re-analysis of the deposited data

Results flagged for a closer look

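In 5 of 124 groups of 4 arrays (62 genes in 2 groups) 1 array stood apart from the other 3 by Dixon's test, where chance gives about 1 group in 20. Control replicate 1 was the low array in 4 of them: Gsto1 (8.56, others 9.08 to 9.16), Gstk1 (11.55, others 11.95 to 11.96), Gsta3 (7.22, others 7.78 to 7.89) and Aldh3a1 (6.63, others 6.92 to 6.96). In Gstt1 knockout replicate 1 was the high array of its group (7.08, others 6.92 to 6.94). Without control replicate 1, Gstk1 passed the test (−0.61).

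A probe set that carries both Aldh3b2 and Aldh3b3, left out of the members because it has 2 symbols, was higher in every knockout array (9.67, 10.08, 9.28 and 9.29) than in any control array (8.22, 7.92, 8.18 and 8.12). Its difference was 1.47 (SE 0.17, 2.77-fold, limma adjusted p = 7.10e-04 over all 35556 probe sets), larger than that of either gene's own probe set used above.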

How the results depend on the processing

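Of the 25 called members, 11 kept their call and direction under every alternative that tested them, and 14 lost the call under at least 1. No call changed direction. Among the 11, Aldh3a1, Gstp3, Gstt1 and Mgst2 lay below the median level. They were therefore tested under 15 rather than 16 alternatives. A further 3 members that did not pass (Aldh3a2, Gstk1 and Gpx2) passed under at least 1. Adjusting for the mesenchymal marker mean made the largest difference, leaving 1951 changed genes, 9 members lower and 3 higher, and 6 antioxidant genes lower; all 12 members called there were among the 25. Leaving out 1 array gave 2766 to 3978 changed genes, 16 to 22 members lower, 3 to 5 members higher, 10 to 13 antioxidant genes lower and 2 to 3 higher, 3 to 4 retinoid genes higher and 2 to 3 lower. Members higher numbered 3 without control replicate 1. Without knockout replicates 1 and 4 together 3 members were higher and 8 antioxidant genes lower. Among genes above the median level 1 antioxidant gene was higher and 35 members remained for testing, of which 21 were called, 19 of them among the 25. Apart from the construction of these alternatives (fewer genes or arrays, 1 more term), the cause was not tested.

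The replicate numbers gave no sign of pairing: deviations of same-numbered arrays from their group means correlated at 0.05966, 0.09513, −0.08181 and 0.04418 over all genes. No control array correlated best with the knockout array of its number. Control replicate 3 correlated at −0.3419 with knockout replicate 1 and at 0.361 with knockout replicate 4. Deviations cancel out within a group, so these values do not settle whether samples were paired. With the number as a replicate block 3494 genes and 26 members were called, 25 of them those already called. No probe set has a measure of background here, so whether a member that did not pass was above background is not known.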

Other observations

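Probe sets shared by Gsta1 and Gsta2 with predicted genes, 4 in all, read 6.53 to 7.09 in control and 6.39 to 6.89 in knockout arrays and did not pass (differences of −0.15 to −0.10), while the alpha class member Gsta4 rose by 0.43. Aldh9a1 and Mgst3 are neighbours on chromosome 1, and the first fell by 0.56 on the log2 scale while the second rose by 0.32. The spread among knockout arrays exceeded that among control arrays in 34 of the 52 members (65.4%) and in 52.8% of all genes, with median SDs of 0.17 and 0.13 for the members and 0.10 in both groups for all genes. In Gsr the order was the opposite, with an SD of 0.47 in control and 0.04 in knockout arrays; the leukocyte gene Ptprc, chosen after its values were seen, also varied more in control (7.76 to 9.03) than in knockout arrays (8.34 to 8.55).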
